A study of Mus musculus with 15 samples.

Results

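High mechanical stretch was compared with no stretch in mouse podocytes of the SVI line, in the 3 high-stretch and 3 unstretched cultures that the sample titles place in experiment 2. These 6 samples are part of a series of 15. The other 9 belong to experiment 1, with 6 low-stretch and 3 unstretched cultures of the same line. SVI is a conditionally immortalised line, and the differentiated cells were loaded on flexible silicone membranes. The high-stretch labels give a deflection of the membrane of 7 to 8 mm and the low-stretch labels 5 to 6 mm, whereas the unstretched cultures were not deflected. All groups share 1 cell line, so no culture represents a separate animal, and the labels do not say whether cultures were grown on separate days. The p-values therefore measure the spread between these samples, which may be technical. How long the cells were stretched is not given in the sources used here.

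Podocytes are the epithelial cells that wrap the glomerular capillaries with interlocking foot processes, joined by the slit diaphragm and anchored to a basement membrane by integrins and dystroglycan. Capillary pressure stretches them, and their actin cables, focal adhesions and matrix carry that load. Stretched cells are known to signal through integrins, the YAP and TEAD transcription regulators, serum response factor and TGF-beta, and podocytes can also make complement proteins and cytokines.

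The markers of the labelled cell type were detected in part. Synpo, which encodes the podocyte actin-binding protein synaptopodin, stood at 400, 725 and 592 CPM (gene counts scaled to library size with TMM factors, in the order of replicates 1 to 3) under high stretch and at 648, 642 and 415 CPM without stretch. Podxl, which encodes the surface sialomucin podocalyxin, ranged from 115 to 178 CPM over the 6 libraries. Nphs1, which encodes the slit diaphragm protein nephrin, ranged from 0.232 to 0.852 CPM. Trpc6, a podocyte cation channel, had 0 counts in all 6.

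Libraries held from 172211836 to 297641156 gene counts. High-stretch replicate 2 and unstretched replicates 1 and 2 had fewer than 200000000, and the other 3 libraries had more. Unstretched replicate 3 diverged from its group. Over 12605 genes with a mean of at least 1 CPM, its median absolute log2 difference was 0.50 from unstretched replicate 1 and 0.65 from replicate 2, against 0.20 between those replicates. A log2 difference beyond 1 separated it from unstretched replicate 2 in 3145 genes, and replicates 1 and 2 from each other in 68. By the same median, high-stretch replicates 1 and 2 differed by 0.44. High-stretch replicate 2 was nearer to unstretched replicate 2 (0.18) than to high-stretch replicate 3 (0.25). Unstretched replicate 3 was nearest to high-stretch replicate 1 (0.32), so these distances did not group the libraries by stretch. Mitochondrial genes took 2.60% of the counts of unstretched replicate 3, against 1.15% and 1.56% in the other unstretched libraries, and ribosomal protein genes 4.16%, against 6.45% and 6.67%. Its deviation followed gene length. When the genes were ordered by exonic length and divided into 5 sets of like size, its median log2 difference from the mean of unstretched replicates 1 and 2 was -0.53 in the shortest set (median 1190 bases) and 0.61 in the longest (median 9726 bases). High-stretch replicates 1 and 2 leaned in opposite directions on the same scale, with medians of 0.15 and -0.25 in the longest set. The median log2 fold change of stretch itself ran from 0.05 in the shortest set to -0.04 in the longest. Whether library total or gene length has a part in single results was not tested beyond the values given here.

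**Figure D1:**
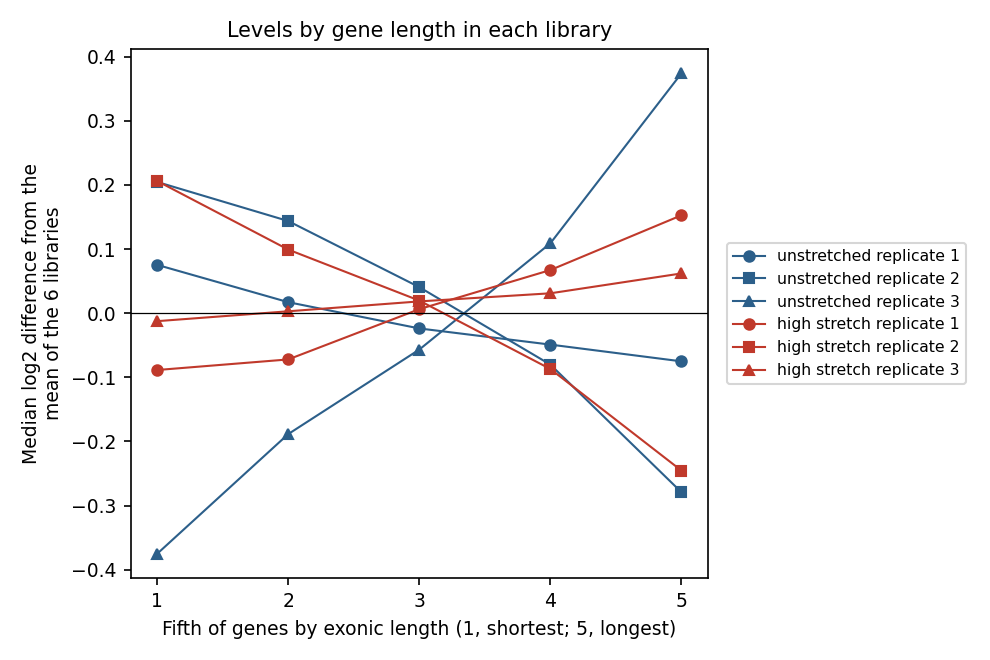
Median log2 difference of each library from the mean of the 6 libraries (y axis), in 5 sets of genes ordered by exonic length (x axis), with high-stretch libraries in red and unstretched libraries in blue. Unstretched replicate 3 shows the widest swing, from -0.38 in the shortest to 0.37 in the longest set, and high-stretch replicate 2 and unstretched replicate 2 swing the other way.

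Under high stretch, some genes of matrix assembly, actin crosslinking, TGF-beta feedback and growth signalling rose, and some complement, acute-phase and interferon-induced genes, water and solute transport genes and basement membrane genes fell. By edgeR's quasi-likelihood test, 643 of 18524 genes (3.47%) had a Benjamini-Hochberg adjusted p under 0.05. Of these, 243 rose (1.31%) and 400 fell (2.16%), and 591 of the 643 had a log2 fold change beyond 1. The stretched and unstretched libraries did not overlap for any of the 643 genes, whereas 20.9% of all tested genes showed no overlap, 10.5% with stretch above and 10.3% with stretch below. Each of the 643 genes therefore had the same direction within the libraries under 200000000 counts and within those above. That follows from the lack of overlap and is no separate check. The median log2 fold change over all tested genes was -0.02.

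The number of calls depended strongly on single libraries. Without unstretched replicate 3, 1421 genes (7.77%) passed, 625 higher (3.42%) and 796 lower (4.35%), and they included 636 of the 643. Without high-stretch replicate 3, only 14 genes passed, and all of them fell. These were Serpina3n, Edar, Cnmd, Fgfr3, Lipg, Cfi, C4bp, Apln, Atp1b2, Anpep, Inmt, Adamtsl1, Rd3 and the antisense transcript Gm13398, each with an adjusted p of 0.0463. Counts also dropped to 90 without high-stretch replicate 1, to 122 without unstretched replicate 1 and to 293 without high-stretch replicate 2. No gene of the 643 changed direction in any of these fits, which the lack of overlap all but fixed in advance. All rises described below therefore miss the threshold when high-stretch replicate 3 is left out, and adjusted p-values of that fit are given with the groups.

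**Figure D2:**
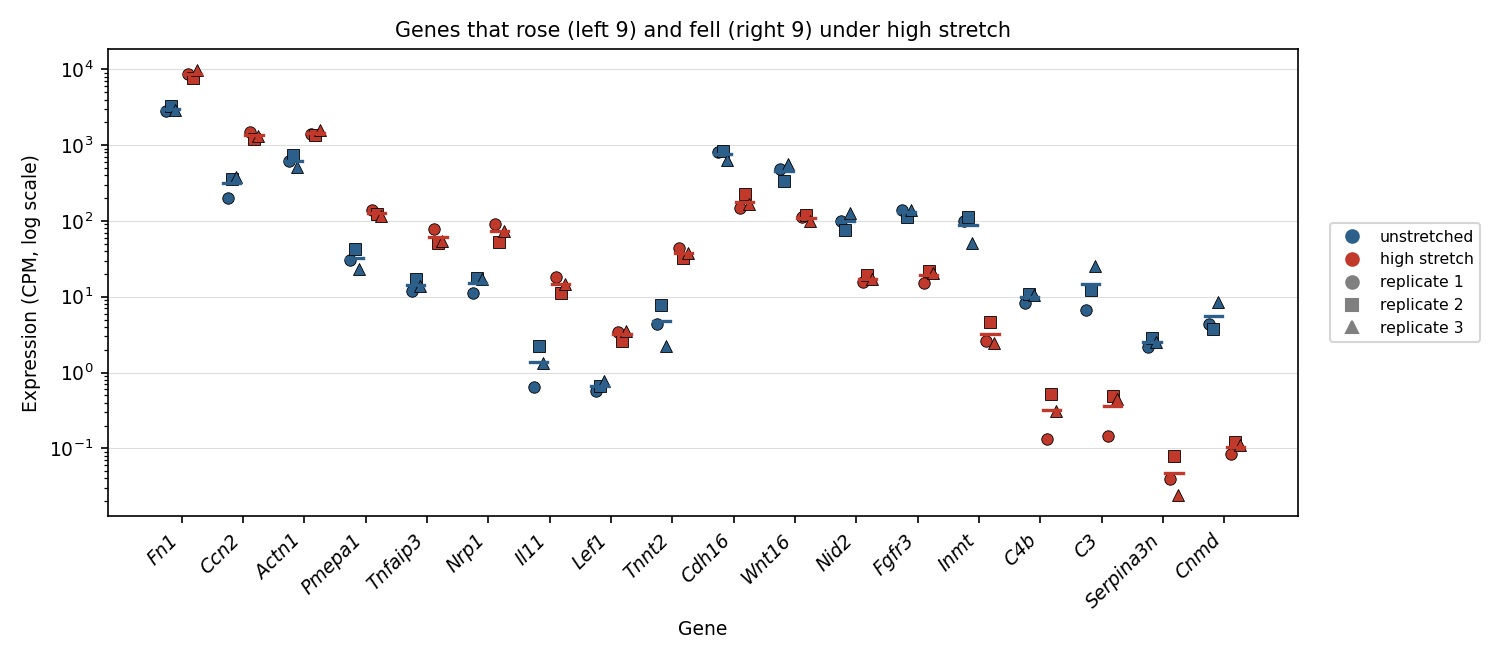
Expression in CPM on a log scale (y axis) of 9 genes that rose and 9 that fell (x axis), with 1 symbol per library and a bar at the group mean. The red high-stretch symbols and blue unstretched symbols do not overlap for any of the 18 genes, and Serpina3n and Cnmd show the widest gaps.

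Rises were found among secreted matrix and matrix-control genes. Fn1, which encodes the matrix protein fibronectin, stood at 8742, 7715 and 9662 CPM in the stretched libraries and at 2779, 3306 and 2908 CPM in the unstretched ones. Every stretched library lay above every control, and the log2 fold change was 1.54 ± 0.19 (SE, n = 3 per group; edgeR adjusted p = 0.00844). Ccn2, a matricellular protein gene induced by YAP and TGF-beta, stood at 1513, 1217 and 1338 CPM against 203, 357 and 377 CPM, 4.34-fold higher by group means. Its log2 fold change was 2.12 ± 0.27 (edgeR adjusted p = 0.00877). Fbln2, which encodes the elastic-fibre and basement membrane protein fibulin-2, and Loxl2, which encodes a collagen-crosslinking lysyl oxidase, rose by 1.47 and 1.07 on the log2 scale. Without high-stretch replicate 3 the adjusted p-values of Fn1 and Ccn2 were 0.0651 and 0.0626.

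The list of proteoglycans and glycoproteins held calls in both directions, with 3 of 27 tested members higher and 8 lower. Cnmd, which encodes chondromodulin, an anti-angiogenic glycoprotein of cartilage, had 0.0833, 0.123 and 0.111 CPM under stretch and 4.41, 3.72 and 8.49 CPM without it. This was a 52.4-fold lower group mean and a log2 fold change of -5.72 ± 0.43 (edgeR adjusted p = 0.00246). The small leucine-rich proteoglycans Fmod, Ogn and Prelp, which bind collagen fibrils, fell, with log2 fold changes of -3.15, -2.87 and -2.76. Mgp, an inhibitor of calcification, Fbn2, a microfibril gene, Postn, a matricellular gene, and Loxl4, another lysyl oxidase gene, had log2 fold changes of -1.72, -1.71, -2.08 and -2.09 and also fell. Leaving out high-stretch replicate 3, Cnmd passed and the other members did not, with adjusted p-values from 0.0628 for Fmod to 0.164 for Postn. Ogn was at -2.18 without unstretched replicate 3.

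Of 20 tested basement membrane genes 5 fell and 2 rose, with a median log2 fold change of -0.49. Nid2, which encodes nidogen-2, a linker of laminin and collagen IV networks, stood at 15.6, 19.2 and 17.2 CPM against 98.5, 75.8 and 129 CPM. The groups were far apart, and its log2 fold change was -2.54 ± 0.23 (edgeR adjusted p = 0.00389). Fras1, an extracellular matrix gene of the fetal kidney, Lama3, a laminin chain gene, Npnt, which encodes the integrin ligand nephronectin, and Col4a6, a collagen IV chain gene, fell, with log2 fold changes of -1.52, -2.66, -1.10 and -0.78. Col4a3, a chain of the mature glomerular collagen IV network, rose, but from very low levels: 0.492, 0.393 and 0.457 CPM against 0.0273, 0.0699 and 0.0800 CPM (log2 fold change 2.88 ± 0.41, edgeR adjusted p = 0.0124). Lamb3, a laminin chain gene paired with Lama3 in epithelial laminin, rose by 2.85 and was also low, with group means of 0.678 CPM under stretch and 0.0944 CPM without it. Col4a1 and Col4a2, the ubiquitous collagen IV chains, lay below all controls in every stretched library but did not pass, with log2 fold changes of -0.49 and -0.79 (edgeR adjusted p = 0.242 and 0.0804). In the fit lacking high-stretch replicate 3, Nid2 had an adjusted p of 0.0529 and Col4a3 0.0800.

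Among 18 fibrillar and associated collagens 3 rose and 1 fell. Col6a3, a chain of beaded-filament collagen, Col7a1, the anchoring-fibril collagen, and Col27a1, a fibrillar collagen, rose by 3.05, 1.71 and 1.40 on the log2 scale. Col11a1, a fibrillar collagen of cartilage, fell by 2.35. Col6a3 was low, with group means of 0.809 CPM under stretch and 0.0969 CPM without it. Of 28 matrix proteases and inhibitors 3 rose and 3 fell. Mmp10, which encodes stromelysin-2, stood at 1.08, 1.07 and 1.03 CPM against 0.0328, 0.184 and 0.0416 CPM, a log2 fold change of 3.69 ± 0.59 (edgeR adjusted p = 0.0185). Timp1, an inhibitor of matrix metalloproteinases, rose by 1.21. The aggrecanases Adamts15 and Adamts4 and the related Adamtsl1, which lacks a protease domain, fell, with log2 fold changes of -4.22, -1.31 and -4.15. Adamtsl1 passed without high-stretch replicate 3, whereas Mmp10 had an adjusted p of 0.0908 and Col6a3 0.0529. The log2 fold change of Mmp10 was 4.80 without unstretched replicate 2.

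Of 17 tested actin crosslinker genes 2 rose and 0 fell, with a median log2 fold change of 0.43. Actn1, which encodes the actin crosslinker alpha-actinin-1, stood at 1410, 1346 and 1580 CPM against 613, 739 and 513 CPM, a log2 fold change of 1.22 ± 0.20 (edgeR adjusted p = 0.0207). Tagln2, a transgelin gene, rose by 1.47 on the log2 scale, Tmsb4x, which encodes the actin-monomer binder thymosin beta-4, by 0.97, and Fblim1, an adhesion plaque gene, by 1.15. Tnnt2, a troponin gene of striated muscle, rose from 4.31, 7.87 and 2.25 CPM to 44.4, 32.3 and 37.5 CPM. Of 16 MRTF and SRF targets and cofactors, the actin-responsive transcription programme, 0 passed in either direction by edgeR with all libraries. Yet 14 of the 16 lay above 0, against 8813 of all 18524 tested genes, and the median of the list was 0.38. At an unadjusted p under 0.05 the list held 7 genes, and DESeq2 called 2. Without unstretched replicate 3, 3 members passed as higher and 2, Egr1 and Fos, as lower. Acta2, which encodes smooth muscle actin, ranged from 5765 to 8976 CPM under stretch and from 2144 to 6068 CPM without it, and the groups overlapped (log2 fold change 0.98 ± 0.38, edgeR adjusted p = 0.269). Mylk, which encodes myosin light chain kinase, fell by 1.28. Lacking high-stretch replicate 3, Actn1 had an adjusted p of 0.122 and Tmsb4x 0.193.

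Of 21 tested YAP and TEAD targets 2 rose, Ccn2 and Foxf2, a forkhead factor gene, and 0 fell, with a median log2 fold change of 0.10. Ccn1, a matricellular relative of Ccn2 and a standard YAP readout, stood at 878, 979 and 937 CPM against 539, 778 and 1292 CPM, so that unstretched replicate 3 exceeded all stretched libraries (log2 fold change 0.10 ± 0.30, edgeR adjusted p = 0.953). Ankrd1, another such readout, had 438, 249 and 302 CPM against 141, 150 and 254 CPM, and only unstretched replicate 3 overlapped the stretched range. Its log2 fold change was 0.86 (edgeR adjusted p = 0.216) with all libraries and 1.20 (edgeR adjusted p = 0.0119) without that replicate, when 5 members of the list passed as higher and 2 as lower. Piezo1, a stretch-gated cation channel gene, ranged from 401 to 485 CPM under stretch and from 291 to 477 CPM without it, and did not pass (edgeR adjusted p = 0.865). Of 19 tested ion channel genes 1 rose and 2 fell. Kcnk2, which encodes the stretch-sensitive potassium channel TREK-1, was low, at 1.11, 0.589 and 0.783 CPM against 0.109, 0.146 and 0.0928 CPM. It rose by 2.85 on the log2 scale (edgeR adjusted p = 0.00814, and 0.0619 without high-stretch replicate 3). Ano1, a calcium-activated chloride channel gene, and Kcnma1, a large-conductance potassium channel gene, fell, with log2 fold changes of -1.68 and -1.6 (edgeR adjusted p = 0.0250 and 0.0368, and 0.163 and 0.209 without that replicate).

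Receptors, inhibitors and readouts of TGF-beta signalling included 4 higher and 0 lower members of 19 tested, with a median of 0.31. Pmepa1, a target that dampens the pathway, stood at 138, 124 and 115 CPM against 30.6, 42.8 and 23.4 CPM, a log2 fold change of 1.97 ± 0.24 (edgeR adjusted p = 0.00824). The inhibitory Smad7 and the type I receptor gene Acvr1 also rose, with Smad7 at 0.95 and Acvr1 at 0.76. Ltbp1, which stores latent TGF-beta in the matrix, rose from 41.8, 55.0 and 91.8 CPM to 194, 148 and 241 CPM, and the ligand genes Bmp3 and Gdf6 fell by 2.81 and 0.95. Tgfb1 itself did not pass (log2 fold change 0.49, edgeR adjusted p = 0.615). The adjusted p of Pmepa1 without high-stretch replicate 3 was 0.0609 and that of Acvr1 0.229.

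Integrin genes changed on both sides, with 2 of 17 higher and 2 lower. Itgb3 and Itgb4, the beta chains of the vitronectin receptor and of the hemidesmosomal integrin, rose by 1.5 and 1.53, and Itga1, a collagen receptor chain, and Itgb6, a TGF-beta-activating chain, fell, with log2 fold changes of -1.88 and -2.93. Itgb4 and Itgb6 were below 1 CPM in every library. Dag1, which encodes dystroglycan, a podocyte anchor to the basement membrane, fell from 753, 667 and 661 CPM to 352, 375 and 365 CPM (log2 fold change -0.93 ± 0.16, edgeR adjusted p = 0.0242, and 0.177 without high-stretch replicate 3).

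Calls in growth factor and Wnt genes fell on ligands, receptors and feedback genes. Fgfr3, an FGF receptor gene, stood at 15, 21.6 and 20.7 CPM against 139, 114 and 138 CPM, a log2 fold change of -2.77 ± 0.21 (edgeR adjusted p = 0.00246). Its relative Fgfr1 rose by 1.15 and the ligand genes Fgf1 and Fgf18 fell, with log2 fold changes of -1.98 and -1.34. With Angptl2, an angiopoietin-like gene, higher and Igfbp4, which encodes an IGF-binding protein, lower, the FGF, PDGF, IGF, HGF and VEGF list held 2 higher and 4 lower of 30 tested. Areg, which encodes the EGF receptor ligand amphiregulin, rose by 3.19 but stayed under 1 CPM. In the Wnt list 2 of 27 rose and 3 fell. Lef1, a Wnt-responsive transcription factor gene, stood at 3.48, 2.59 and 3.59 CPM against 0.568, 0.667 and 0.762 CPM (log2 fold change 2.27 ± 0.25, edgeR adjusted p = 0.00622), and Axin2, a feedback inhibitor used as a Wnt readout, rose by 2.16. The ligand gene Wnt16 fell from 484, 340 and 559 CPM to 113, 119 and 101 CPM, and Wnt5b and the secreted inhibitor Sfrp2 fell, with log2 fold changes of -1.47 and -2.7. Fgfr3 passed without high-stretch replicate 3, and Lef1, Axin2 and Wnt16 had adjusted p-values of 0.0601, 0.0769 and 0.0628.

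The immediate early list, genes switched on within minutes of growth factor signalling, split between members that rose and members raised in 1 control. With all libraries 8 of 28 rose and 0 fell. Myc, a growth regulator, stood at 51.7, 46.0 and 51.9 CPM against 11.5, 15.2 and 22.4 CPM (log2 fold change 1.61 ± 0.26, edgeR adjusted p = 0.0186), and Etv4, a transcription factor downstream of ERK, at 40.1, 43.1 and 44.5 CPM against 4.36, 13.6 and 3.92 CPM. The other members that rose were Etv5, the AP-1 subunit gene Fosl1, the phosphatase genes Dusp1 and Dusp4, and the Kruppel-like factor genes Klf2 and Klf4, by 1.23 to 1.61. Their adjusted p-values without high-stretch replicate 3 ran from 0.107 for Myc to 0.193 for Klf4. Etv4 had a log2 fold change of 2.55, and of 3.37 without unstretched replicate 2.

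Egr1, Egr2, Egr3 and Fos, early transcription factor genes named here after their values were seen, were lower in every stretched library than in every control. Egr1 stood at 53.8, 62.6 and 48.2 CPM against 98, 89.2 and 932 CPM, and Fos at 11.9, 12.2 and 9.43 CPM against 19.2, 19.4 and 202 CPM. Unstretched replicate 3 was thus far above the other controls. With it, none of these genes passed (edgeR adjusted p = 0.162 for Egr1, 0.160 for Fos, 0.0612 for Egr2 and 0.0566 for Egr3). Without it, all passed as lower, with log2 fold changes of -0.75 for Egr1, -0.77 for Fos, -2.10 for Egr2 and -1.77 for Egr3, and the list held 13 higher and 4 lower members. Spp1, which encodes osteopontin, was the reverse case: it stood at 459, 311 and 426 CPM against 131, 173 and 568 CPM and passed as higher only without that replicate (log2 fold change 1.41, edgeR adjusted p = 0.00343).

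**Figure D3:**
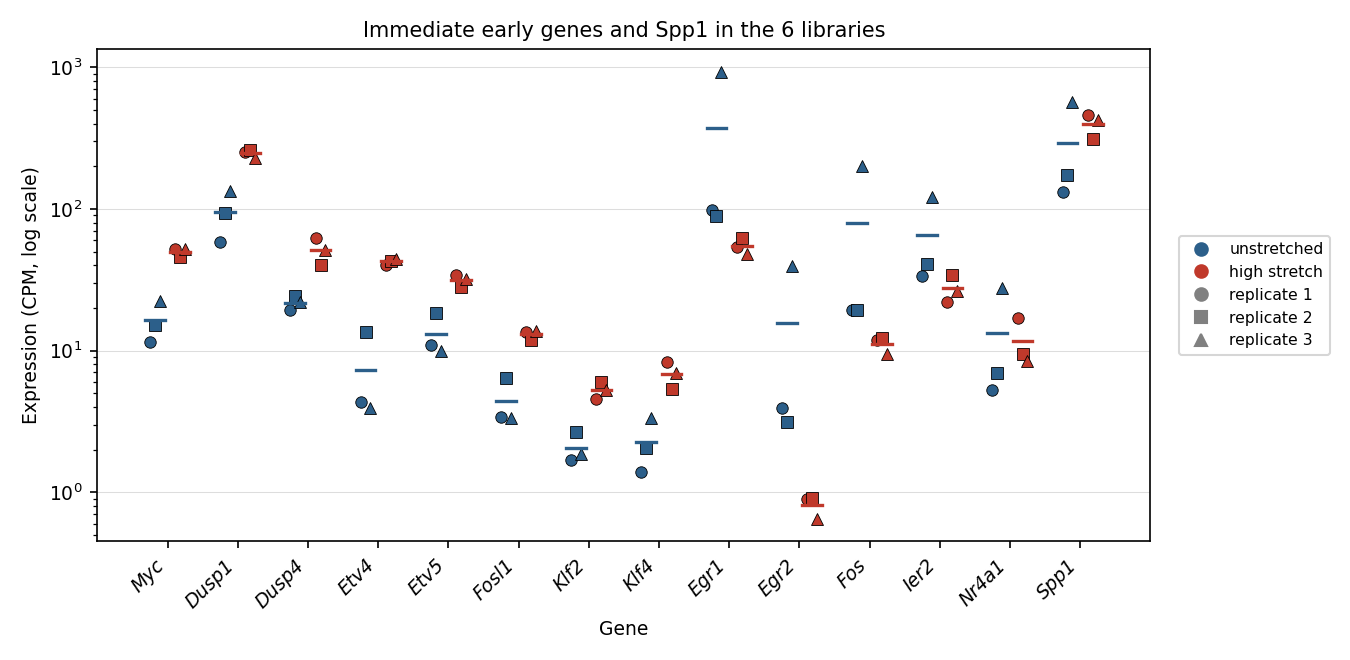
Expression in CPM on a log scale (y axis) of 13 immediate early genes and Spp1 (x axis), with 1 symbol per library and a bar at the group mean. The triangle of unstretched replicate 3 stands at 932 CPM for Egr1 and 202 CPM for Fos, far above replicates 1 and 2, while Myc, Etv4 and the other genes on the left are higher in every red library.

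Of 12 tested complement genes 6 fell and 0 rose, with a median log2 fold change of -1.23. C3, the central component of the cascade, stood at 0.145, 0.485 and 0.450 CPM against 6.62, 12.2 and 25.4 CPM, a 40.9-fold lower group mean (log2 fold change -5.36 ± 0.67, edgeR adjusted p = 0.00824). C4b, a component of the classical and lectin routes, stood at 0.134, 0.516 and 0.308 CPM against 8.21, 10.8 and 10.6 CPM (log2 fold change -4.97 ± 0.49, edgeR adjusted p = 0.00452). The initiating proteases C1s1 and C1ra fell, with log2 fold changes of -3.00 and -2.13, as did the C3b-inactivating protease gene Cfi (-3.48) and Clu (-1.71), whose product clusterin restrains the terminal complex. The fall thus covered activating and regulating members. Without unstretched replicate 3, where C3 was highest, its log2 fold change was -4.70 and the list again held 6 lower and 0 higher. Cfi passed without high-stretch replicate 3, and C4b, C3 and Clu had adjusted p-values of 0.0551, 0.0628 and 0.177.

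Of 8 tested acute-phase and lipocalin genes 4 fell and 0 rose. Serpina3n, a secreted protease inhibitor, had 0.0398, 0.0798 and 0.0242 CPM against 2.17, 2.89 and 2.56 CPM, a log2 fold change of -5.80 ± 0.43 (edgeR adjusted p = 0.00246). Lbp, which carries bacterial lipopolysaccharide, stood at 0.854, 2.42 and 2.07 CPM against 20.9, 27.1 and 21.4 CPM. Cp, which encodes the copper-carrying ferroxidase ceruloplasmin, fell by 1.87 (log2 fold change -1.21 without unstretched replicate 3), and Steap4, a metalloreductase gene with few counts, also passed. Serpina3n passed without high-stretch replicate 3, whereas Lbp had an adjusted p of 0.0565 and Cp 0.202. Serpina3n, C4b, the Gbp genes, Ifit3 and the Sprr2 genes have near-identical relatives in the mouse genome. How shared reads were counted is not given in the sources used here, and their values are uncertain to that extent.

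Interferon and antigen presentation genes were lower in 27 of 29 tested members, of which 6 passed and 0 were called higher, with a median of -0.70. Over all tested genes, 9711 of 18524 were lower. Gbp2, an interferon-induced GTPase, stood at 12.1, 14.1 and 13.7 CPM against 52.3, 47.8 and 46.8 CPM (log2 fold change -1.88 ± 0.17, edgeR adjusted p = 0.00385). Its relatives Gbp3 and Gbp4 and the GTPase Iigp1 fell, with log2 fold changes of -1.77, -4.26 and -3.62, as did the antiviral genes Ifit3 and Oasl2 (-1.45 and -2). Gbp4 rested on few reads, with 2 to 111 counts per library. B2m, the light chain of MHC class I, ranged from 239 to 258 CPM under stretch and from 234 to 255 CPM without it, and its log2 fold change was 0.00 ± 0.15. Without unstretched replicate 3, 13 members passed as lower and Iigp1 was at -3.00, and without high-stretch replicate 2 Gbp4 was at -4.89. The adjusted p without high-stretch replicate 3 of Gbp2 was 0.0529 and that of Oasl2 0.155.

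Cytokine genes did not share one direction. Il11, a cytokine of the IL-6 family linked to fibrosis, stood at 18.4, 11.1 and 14.8 CPM against 0.650, 2.21 and 1.32 CPM, 10.6-fold higher by group means (log2 fold change 3.41 ± 0.45, edgeR adjusted p = 0.0105). Il1rl1, the IL-33 receptor gene, stood at 64.1, 44.0 and 58.7 CPM against 5.37, 10.8 and 10.1 CPM, and Tnfaip3, which encodes the NF-kB inhibitor A20, at 77.4, 50.7 and 54.0 CPM against 12, 16.9 and 13.8 CPM. Both rose, by 2.67 and 2.09. Edar and Tnfrsf19, receptors of the TNF family, and Socs3, a feedback inhibitor of IL-6-type signalling, fell, with log2 fold changes of -5.10, -2.96 and -1.68. The list thus held 3 higher and 3 lower of 24. Edar passed without high-stretch replicate 3, and Il11, Il1rl1 and Tnfaip3 had adjusted p-values of 0.0628, 0.0571 and 0.0544.

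Promoter sequences were compared for genes that moved together, using the 250 bases before the RefSeq start farthest upstream (build GRCm38.p6). Such windows were matched for 174 of the genes that rose and 270 of those that fell. The AP-1 motif, searched as TGANTCA on both strands, was present in 13.2% of the windows of genes that rose, 8.52% of those that fell, 4.43% of 11376 tested genes and 6.85% of all 27025 windows. An interferon response element, searched on both strands as GAAA, any 2 bases and GAAA, was present in 4.60%, 4.07%, 2.50% and 3.05% of the same sets. The NF-kB motif was present in 12.6%, 7.04%, 8.60% and 7.03%, the TEAD motif (GGAATG) in 13.8%, 14.4%, 10.9% and 12.6%, and the CArG box in 2.30%, 0.741%, 1.15% and 1.41%. The TCF/LEF motif (CTTTGA) was present in 10.9%, 11.1%, 10.7% and 14.1%, and the STAT motif (TTCNNNGAA) in 6.32%, 7.41%, 5.99% and 7.14%. All were searched on both strands, and these shares are descriptions without a test, and a match is not a binding site. Windows of named genes that rose and hold the AP-1 letters, in capitals, are shown 5′ to 3′ on the gene's strand for Mmp10 (chr9:7502092-7502341, plus strand), Sprr1a (chr3:92485882-92486131, minus strand) and Tnfaip3 (chr10:19015411-19015660, minus strand).
Mmp10: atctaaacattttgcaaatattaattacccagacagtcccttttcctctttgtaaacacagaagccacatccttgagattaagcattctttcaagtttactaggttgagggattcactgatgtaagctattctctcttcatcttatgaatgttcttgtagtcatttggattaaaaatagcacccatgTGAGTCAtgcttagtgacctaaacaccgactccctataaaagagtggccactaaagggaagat
Sprr1a: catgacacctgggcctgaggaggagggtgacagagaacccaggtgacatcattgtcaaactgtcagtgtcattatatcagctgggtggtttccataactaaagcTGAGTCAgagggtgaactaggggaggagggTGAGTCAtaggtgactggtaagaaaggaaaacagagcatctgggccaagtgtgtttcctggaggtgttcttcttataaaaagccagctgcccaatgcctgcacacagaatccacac
Tnfaip3: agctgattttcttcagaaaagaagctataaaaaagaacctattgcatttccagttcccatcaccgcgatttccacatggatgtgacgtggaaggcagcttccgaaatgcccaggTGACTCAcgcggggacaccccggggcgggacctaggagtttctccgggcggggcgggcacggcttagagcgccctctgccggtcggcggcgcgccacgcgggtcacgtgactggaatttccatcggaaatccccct
The AP-1 match began 63 bases before the start in Mmp10, 146 and 116 bases before it in Sprr1a, and 136 bases before it in Tnfaip3. Windows of interferon-induced genes that fell are shown with the response element in capitals for Gbp2 (chr3:142620413-142620662, plus strand) and Gbp3 (chr3:142559794-142560043, plus strand). The matches began 59 bases before the start in Gbp2 and 45 and 39 bases before it in Gbp3, where they overlapped. These windows and those shown for AP-1 were chosen as examples with a match, and windows of other called genes are not shown. By the shares above, the interferon response element was present in 4.60% of windows of genes that rose and 4.07% of those that fell. The Gbp2 window also holds an AP-1 match, left in lower case, 102 bases before the start, although Gbp2 fell, and other motifs in the printed windows are not capitalised.
Gbp2: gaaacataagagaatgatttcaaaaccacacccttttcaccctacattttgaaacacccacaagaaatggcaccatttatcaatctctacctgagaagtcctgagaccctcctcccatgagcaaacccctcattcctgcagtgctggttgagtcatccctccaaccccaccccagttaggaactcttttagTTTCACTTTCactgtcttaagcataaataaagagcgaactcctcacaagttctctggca
Gbp3: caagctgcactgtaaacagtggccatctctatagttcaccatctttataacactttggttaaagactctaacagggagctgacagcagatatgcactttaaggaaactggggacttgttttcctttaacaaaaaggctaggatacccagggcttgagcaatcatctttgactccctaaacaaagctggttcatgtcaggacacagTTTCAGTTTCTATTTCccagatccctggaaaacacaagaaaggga

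Of 21 tested cornified envelope, S100 and serpin b genes, which barrier epithelia express, 5 rose and 0 fell. Sprr1a, which encodes a cross-bridging protein of the cornified envelope, rose by 3.16, and its relative Sprr2g, annotated as a polymorphic pseudogene, by 3.43. Serpinb9b, an intracellular protease inhibitor gene, rose by 3.35, and S100a4, a calcium-binding protein gene of motile cells, by 1.49. Serpinb9b stood at 12.6, 7.68 and 9.94 CPM against 0.437, 1.56 and 0.957 CPM. Pkp1, a desmosomal plaque gene, and Gjb2, which encodes the gap junction protein connexin 26, rose by 3.11 and 3.7. Both were low, with group means of 0.508 and 0.873 CPM under stretch and 0.0618 and 0.0696 CPM without it. In contrast, the claudin genes Cldn19 and Cldn2 fell, with log2 fold changes of -4.70 and -2.33. Cldn19, a tight junction gene of the thick ascending limb, stood at 0.376, 1.21 and 0.707 CPM against 25.5, 16.6 and 17.1 CPM. With high-stretch replicate 3 left out, the adjusted p of Cldn19 was 0.0551 and that of Serpinb9b 0.0651. Leaving out unstretched replicate 2, which was the highest control for Sprr2g, Sprr1a, Pkp1 and Gjb2, gave log2 fold changes of 4.12, 4.29, 3.97 and 4.48 for them.

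Among transport and vasoactive genes most calls were falls. Aqp1, which encodes the water channel aquaporin-1, stood at 46.5, 65.0 and 23.7 CPM against 707, 719 and 242 CPM, 12.3-fold lower by group means (log2 fold change -3.62 ± 0.52, edgeR adjusted p = 0.0135). Replicate 3 was the lowest in both groups, and the groups did not overlap. Atp1b2, a sodium pump subunit gene, and Slc1a1, a glutamate transporter gene, fell, with log2 fold changes of -3.69 and -4.19, so that 3 of 22 pumps and solute carriers fell and 0 rose. Slc1a1 stood at 0.0507, 0.0982 and 0.1 CPM against 0.710, 1.08 and 2.71 CPM, and its log2 fold change was -3.41 without unstretched replicate 3. Of 23 genes of vasoactive signalling 5 fell and 2 rose. Agt, which encodes angiotensinogen, Npr3, which encodes the natriuretic peptide clearance receptor, and Edn1, which encodes endothelin-1, fell, with log2 fold changes of -3.42, -1.85 and -1.61, while the cyclic AMP phosphodiesterase gene Pde4d and the adenosine receptor gene Adora2b rose by 1.69 and 1.9. Inmt, an indolethylamine methyltransferase gene, stood at 2.64, 4.69 and 2.43 CPM against 100.2, 112 and 50.7 CPM (log2 fold change -4.75 ± 0.41). Inmt and Atp1b2 passed without high-stretch replicate 3, and Aqp1 and Agt had adjusted p-values of 0.0736 and 0.0908.

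Metabolic and housekeeping lists held few or no calls. Hk2, which encodes hexokinase 2, rose from 21.6, 25.1 and 25.4 CPM to 122, 66.8 and 83.1 CPM (log2 fold change 1.91 ± 0.25, edgeR adjusted p = 0.00897), while Car12, Adm, Pfkfb3 and Ndrg1 of the glycolysis and hypoxia list fell, with log2 fold changes from -1.58 to -1.25. Cell cycle (35 genes), nuclear-encoded oxidative phosphorylation (30), cholesterol (23), splicing regulators (33), ER stress (25), p53 targets (16) and heat shock (15) each held 0 calls in edgeR with all libraries, as did 41 cytosolic ribosomal protein genes. At an unadjusted p under 0.05 these lists held between 0 and 4 genes, and DESeq2 called between 0 and 2 in each. Without unstretched replicate 3, the p53, ER stress and heat shock lists held 3, 2 and 2 calls and the ribosomal list 1, while cell cycle, oxidative phosphorylation, cholesterol and splicing again held 0.

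**Figure D4:**
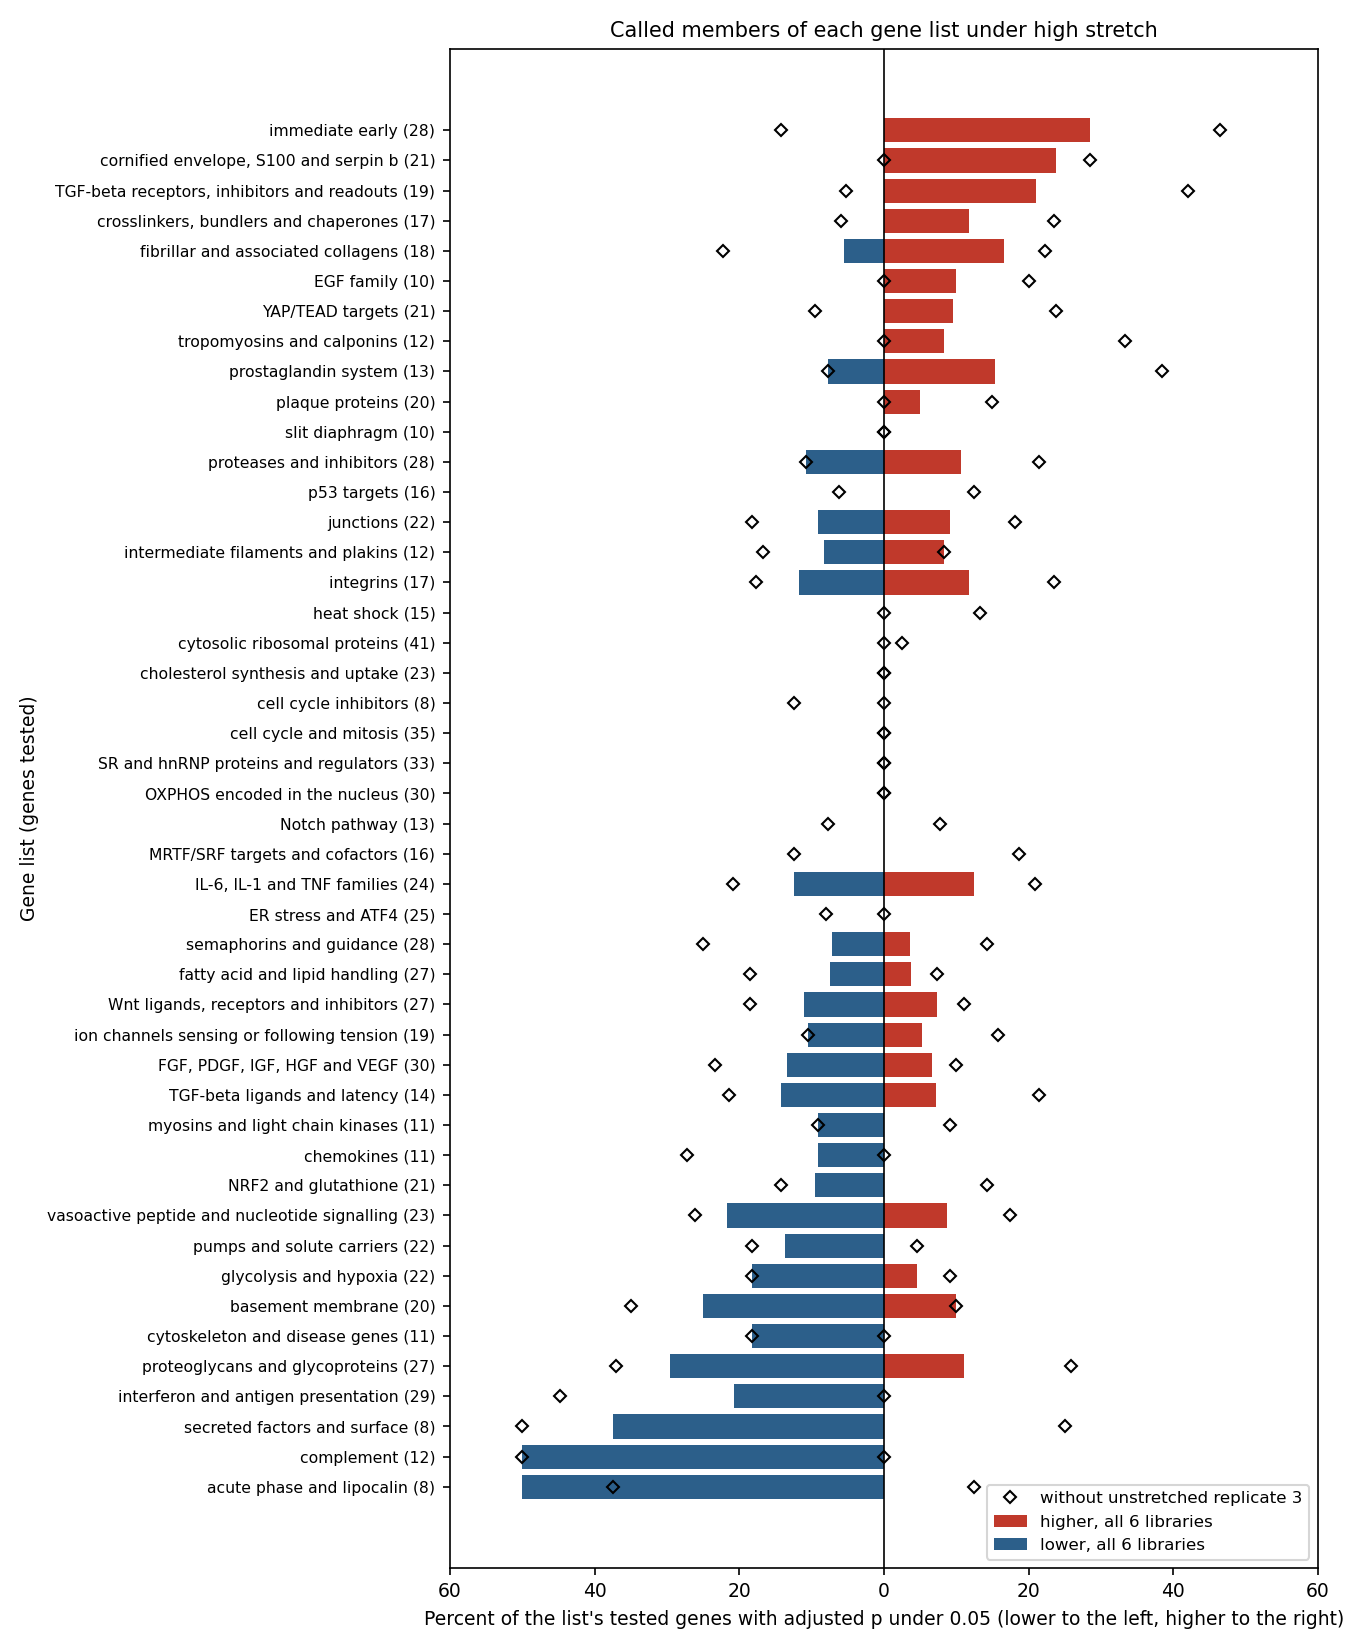
Percent of the tested members of each gene list that passed as higher (red, to the right) or lower (blue, to the left), with open diamonds for the count without unstretched replicate 3 over the same denominator, for lists with at least 8 tested genes. Complement and acute-phase genes reach furthest to the left with 6 of 12 and 4 of 8 members, and immediate early genes furthest to the right with 8 of 28.

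Of 10 tested slit diaphragm genes 0 passed in either direction by edgeR, with all libraries and without unstretched replicate 3. None had an unadjusted p under 0.05, and DESeq2 called 0. Wt1, the podocyte transcription factor, fell from 1.56, 1.5 and 4.25 CPM to 0.391, 0.503 and 0.530 CPM (log2 fold change -2.36 ± 0.45, edgeR adjusted p = 0.0311), and it was the single called member of 7 podocyte transcription factor genes. Plce1, a phospholipase gene mutated in nephrotic syndrome, and Arhgap24, a Rac inhibitor gene, fell, with log2 fold changes of -2.48 and -0.94, and among secreted and surface genes Ptgds, Dag1 and Npnt fell. Synpo did not pass (log2 fold change 0.01 ± 0.27), nor did Actn4, which encodes the podocyte crosslinker alpha-actinin-4 (0.43 ± 0.24, edgeR adjusted p = 0.517). The adjusted p of Wt1 without high-stretch replicate 3 was 0.155, and that of Plce1 0.0946. Leaving out unstretched replicate 3, the highest control for Wt1, gave a log2 fold change of -1.67.

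The RNA was also read for markers of other cell types. Epcam, Aqp2, Adgre1, Cd3e, Cpa3 and Krt19 had 0 counts in all 6 libraries. Cdh16, a kidney tubule cadherin gene, stood at 146, 225 and 168 CPM against 812, 834 and 646 CPM (log2 fold change -2.09 ± 0.23, edgeR adjusted p = 0.00592). The summed level of the 10 tubule markers ranged from 442 to 530 CPM under stretch and from 1108 to 1237 CPM without it, while 5 of the 10 had fewer than 10 counts in any library. Cdh16 made this difference: of the other tested tubule markers Cubn, Slc12a1, Havcr1 and Lrp2 none passed, with log2 fold changes of 0.41, 0.24, 2.26 and -0.39, and Havcr1 was higher in every stretched library at under 1 CPM. Csf1r, a receptor of macrophages, fell by 2.02, while 6 of the 9 macrophage and lymphocyte markers had fewer than 10 counts in any library. Mcpt8, a basophil protease gene, rose by 3.98 and Ms4a2, a chain of the IgE receptor, fell by 2.73, with 6 of 9 mast cell and basophil markers under 10 counts. In bulk RNA, fewer cells that express a gene and less RNA per cell cannot be told apart. For Cdh16, Csf1r and Mcpt8 the adjusted p-values without high-stretch replicate 3 were 0.0619, 0.0736 and 0.138, and Mcpt8 had a log2 fold change of 5.56 without unstretched replicate 2.

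The same genes were read in experiment 1, whose libraries share no sample with those above. Of the 643 genes, 636 were tested under low stretch, and 635 of them had the same sign there. The share of all tested genes with the same sign in both experiments is not given here. Among the 636, 280 also passed edgeR's test in experiment 1, against 5.45% of all genes tested in that experiment, and 0 passed in the opposite direction. By direction, 64 of 241 rises (26.6%) passed there against 1.85% of all genes, and 216 of 395 falls (54.7%) against 3.6%. Il11 had a log2 fold change of 2.94 under low stretch, C3 -2.95, Serpina3n -3.44, Cnmd -3.53 and Lama3 -2.67, each past the threshold. Clu was near 0 there (-0.07) and Adamtsl2, a fibrillin-binding matrix gene, at -0.56. A direct contrast of both stretch effects was fitted over all 15 samples. It passed for 0 of 22015 genes in edgeR, with 547 genes at an unadjusted p under 0.05. Without unstretched replicate 3 it passed for 0 of 22583 genes, and the smallest adjusted p was 0.210. In that fit 2154 genes had an unadjusted p under 0.05, so this number depended strongly on 1 control. The lack of calls therefore does not show that the stretch effects were equal. Amplitude and experiment are the same split of the stretched cultures and cannot be told apart, and genes selected in experiment 2 carry fold changes favoured by that choice.

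**Figure D5:**
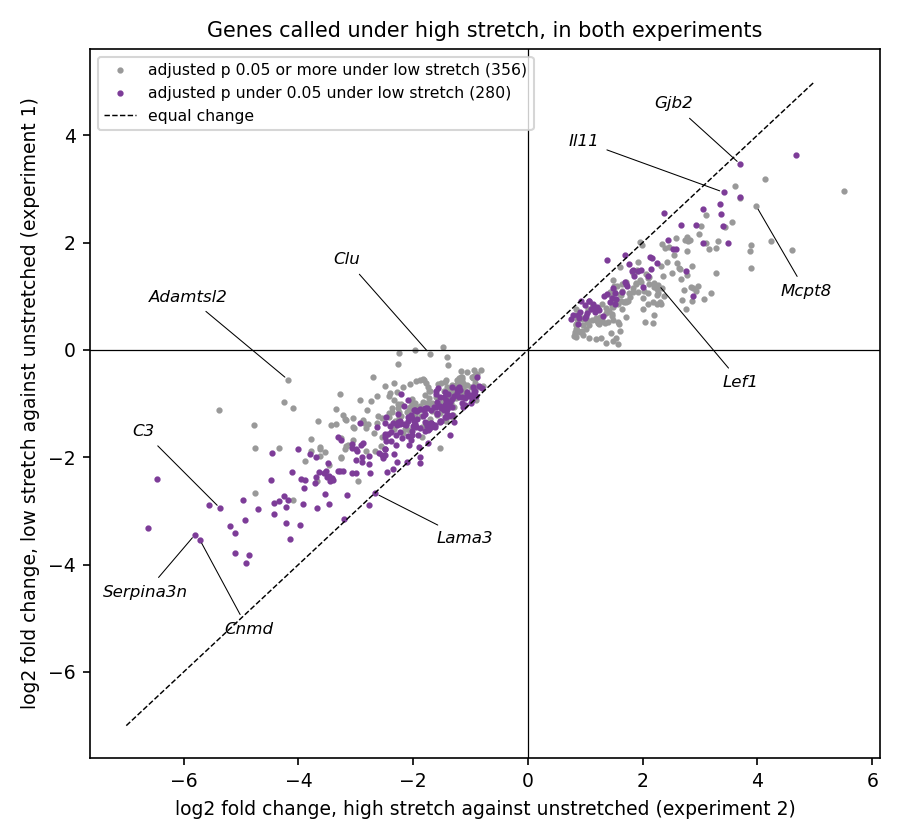
Log2 fold changes under high stretch (x axis) and low stretch (y axis) of the 636 genes called under high stretch and tested in both experiments, with purple for the 280 that also passed under low stretch and a dashed line of equal change. All but 1 of the points lie in the quadrants of equal sign.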

How the data were processed

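RNA of 6 cultures (3 high-stretch, 3 unstretched, experiment 2) was compared, and the 9 samples of experiment 1 were used for the contrast with low stretch. The deposited table held raw read counts per gene for 55416 genes. Per the submitters' processing notes, STAR 2.7.5c, featureCounts and Subread 2.0.0, DESeq2 1.38.3 and Salmon 1.9.0 were used with build mm39. The annotation and strand setting are not given in the sources used here. Transcript TPM values, deposited by the authors in a separate table, were summed per gene for 1 alternative, on the log2(TPM + 0.1) scale. Symbols came from GENCODE M21 (52083 genes matched).

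Counts were tested with edgeR 4.0.16 (R 4.3.3) after TMM scaling and filterByExpr, with quasi-likelihood fits, group as the only term and Benjamini-Hochberg adjustment over all tested genes at 0.05. Alternatives used limma 3.58.1, DESeq2 1.42.0 and the settings given at the end. In simulated counts for this comparison over 18242 genes, 18% of 100 genes changed by 1 on the log2 scale were recovered, 96% of 100 changed by 2, and 5 other genes were called. The simulated counts were drawn independently for each gene and library, without a shared gene-length trend or a shared shift of unstretched replicate 3. They therefore do not give the error rate under such library differences. The 56 gene lists and the members were chosen with earlier results of these data known. Named genes were, among calls, the 12 largest rises and falls with a mean of at least 1 CPM, the 8 most abundant in each direction, up to 4 members per list with the lowest p (2 where none passed) and 14 podocyte and stretch readouts. Other list members in the text, and the genes that passed without high-stretch replicate 3, were named after their values were seen. Depth ranged from 172211836 to 297641156 counts. Exonic lengths came from the same annotation and promoters from RefSeq. A few results are not reported here.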

Additional observations from a re-analysis of the deposited data

How the results depend on the processing

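Wherever they were tested, the 643 called genes kept their sign in the alternatives other than gene TPM, where Gstm3, Msln and Gm29791 had the opposite sign, but the number of calls moved widely. For alternatives on the same counts, the lack of overlap between groups all but fixed the sign. Genes called, higher and lower, were 1403, 580 and 823 with DESeq2, 1050, 427 and 623 without a filter on low counts, 1488, 543 and 945 with all 15 samples in 1 fit, and 7547, 3718 and 3829 with voom and sample quality weights. Those weights were 5.31 for high-stretch replicate 3, 5.30 for unstretched replicate 1 and 0.16 to 0.68 for the others. The weighted fit thus rests mostly on 1 library per group. A mean count of at least 100, which leaves fewer genes to test, gave 414 calls with 246 lower, and gene TPM gave 435 calls, 130 higher and 305 lower, of which 261 were among the 643. Library total class (under or over 200000000 counts) as a term, an alternative chosen after seeing the data, gave 2762, 1180 and 1582. Leaving out 1 library gave 14 to 1421 calls, 0 to 625 higher and 14 to 796 lower. The cause of these shifts was not tested. Of the 127 named genes that passed, 119 lost their call without high-stretch replicate 3, 89 without high-stretch replicate 1 and 81 without unstretched replicate 1, while 8 passed without high-stretch replicate 3.

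The labels do not say whether equal replicate numbers pair the samples. Same-numbered deviations correlated at r = -0.27, 0.61 and 0.34, and the other combinations at -0.70 to 0.57. So few libraries cannot decide it. A fit with the replicate block gave 1546 calls, 614 higher and 932 lower.

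Synpo, Nphs1 and Ccn1, which did not pass with all libraries, changed sign in some settings. The fit with voom weights rests mostly on high-stretch replicate 3 and unstretched replicate 1. In it, Nphs1 passed at -1.57 (limma adjusted p = 0.00135) and Ccn1 at 0.70 (limma adjusted p = 0.00243). Synpo had a log2 fold change of -0.00823 with all 15 samples, -0.000915 with the replicate block, -0.15 with voom weights, -0.0822 with TPM, and -0.17 to 0.22 when 1 library was left out. Nphs1 was at 0.0166 with the class term and -0.78 to 0.0677 when 1 library was left out, and Ccn1 at -0.15 to 0.52. Depth limits Steap4 and other genes with under 20 counts.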
